A study of Mus musculus with 16 samples.

Results

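The LRRC8 proteins are the subunits of the volume-regulated anion channel, and the family holds 5 genes in the mouse, Lrrc8a, Lrrc8b, Lrrc8c, Lrrc8d and Lrrc8e. All probes annotated to these genes were taken, which gave 5 of the 25697 probes on the array and 4 of the 5 genes. Lrrc8a had 2 probes, Lrrc8b, Lrrc8c and Lrrc8d had 1 each, and Lrrc8e had 0 in the annotation used here and is therefore only named. The family was taken up because the signal of 1 Lrrc8a probe was lower in ATF4 mKO mice. All values of that comparison for these genes are consequently given as a description and without a p-value.

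Quadriceps femoris RNA came from 16 male mice at 22 months of age, with 1 array per mouse. All 16 were homozygous for a floxed Atf4 allele, ATF4(L/L). The 8 ATF4 mKO mice were MCK-Cre(Tg/0), and the 8 controls, their littermates, were MCK-Cre(0/0). Cre was driven by the muscle creatine kinase promoter, so recombination was directed to muscle fibers and heart and not to the other cells of muscle. In whole muscle RNA, fewer cells of a type and less RNA per cell cannot be told apart.

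The volume-regulated anion channel opens when a cell swells. It lets chloride and small organic osmolytes such as taurine leave the cell, so that water follows and cell volume is restored. LRRC8A, also called SWELL1, is required in every functional channel, and it assembles with one or more of the other subunits, which set what the pore conducts. In muscle cells and adipocytes LRRC8A is also known for its part in insulin and AKT signaling.

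The Atf4 signal fell from 10.45 ± 0.12 in control mice to 8.52 ± 0.05 in ATF4 mKO mice (SD, n = 8; limma, adjusted p = 1.26e-13), and the highest ATF4 mKO value (8.61) lay below the lowest control value (10.26). All signals are log2 values on a scale with a floor near the bottom. Across the series the signals ran from 8.25 to 15.401, and 65.7% of probes had a mean below 8.5. The 16 arrays correlated between 0.994 and 0.998 with each other. Fiber markers were bright, from 14.36 for Myh4, a myosin of fast fibers, to 15.31 for Mylpf, its light chain. For the level of a probe with little or no target in muscle, 10 genes of other tissues were used, among them the liver gene Alb and the pancreatic gene Gcg. Their median on an array lay between 8.32 and 8.34. Control mouse 8 and, less so, control mouse 2 stood apart in one of these genes, the apolipoprotein Apoa2, with signals of 8.93 and 8.61. On the other arrays the brightest of the 10 genes lay between 8.35 and 8.43. Control mice 3 and 7 were the least like the rest of their group, with a mean correlation with the other controls of 0.9954 and 0.9953, against 0.9962 to 0.9969 for the remaining controls. The LRRC8 differences are also given without them.

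The LRRC8 genes lie at 3 places in the genome (coordinates of assembly GRCm38.p6 from RefSeq). Lrrc8a is at chr2:30237769-30263790, and Lrrc8e is at chr8:4224268-4237470. Lrrc8b (chr5:105415206-105490079), Lrrc8c (chr5:105519345-105613018) and Lrrc8d (chr5:105699963-105815215) lie in this order on chromosome 5. All 5 genes had a promoter window in the RefSeq table, of 250 bases before and 50 bases from a start of transcription, and Lrrc8d had 2. That start need not be the first base of the gene. The windows of Lrrc8b (chr5:105415525-105415824) and Lrrc8e (chr8:4226577-4226876) lay inside the gene spans given above. For these 2 genes the bases before the gene were not searched. The 250 bases before the start of Lrrc8a (chr2:30237519-30237768, plus strand) are shown because Lrrc8a is the member whose signal differed most between the genotypes. Capitals mark a cyclic AMP response element, TGACGTCA, a motif bound by factors of the CREB and ATF families.
Lrrc8a: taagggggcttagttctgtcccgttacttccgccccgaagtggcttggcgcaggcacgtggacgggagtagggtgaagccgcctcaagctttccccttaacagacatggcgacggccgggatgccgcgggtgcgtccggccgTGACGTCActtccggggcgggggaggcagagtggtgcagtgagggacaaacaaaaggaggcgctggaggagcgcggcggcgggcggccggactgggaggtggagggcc

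The element began 108 bases before the start, at chr2:30237661-30237668. It was not found in the windows of Lrrc8b, Lrrc8c, Lrrc8d or Lrrc8e on either strand. Of all 32851 windows, 1.79% held it. This palindromic motif was added after the data were seen. The motif planned for the search was TGATGNAA, the core of the C/EBP-ATF response element to which ATF4 binds together with C/EBP factors. No window of the 5 LRRC8 genes held it on either strand, and 3.97% of all windows did. The bases G and C made up 60% to 78% of the LRRC8 windows, 70% for Lrrc8a, against 52.7% over all windows. Neither the share of 1.79% nor that of 3.97% was matched for this. Of the genes called lower in ATF4 mKO mice, Lrrc8a included, 16 had a window, and 4 of the 16 held that core. Counted by gene in the same way, 4.51% of all 27025 genes with a window held it. Sites of Iars and Herpud1 are shown as examples, and each is shown with the core in capitals, as its reverse complement.
Iars (chr13:49682126-49682155): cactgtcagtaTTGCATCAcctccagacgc
Herpud1 (chr8:94386306-94386335): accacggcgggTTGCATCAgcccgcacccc

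Iars encodes the tRNA synthetase for isoleucine, and Herpud1 encodes a membrane protein of degradation at the endoplasmic reticulum. Both genes were chosen from the same arrays and for holding the core. A match of letters is a description of the window and does not show binding.

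The mean Lrrc8a signal was lower in ATF4 mKO mice on both of its probes, of which 1 was called. They are called the brighter probe (ILMN_2895213) and the dimmer probe (ILMN_2744193) here. The dimmer probe gave 8.63, 8.67 and 8.82 as the lowest, median and highest of the 8 control mice. In the 8 ATF4 mKO mice these values were 8.46, 8.53 and 8.59. Thus all 8 ATF4 mKO mice lay below all 8 control mice, and the groups did not overlap. Control mouse 4 was the highest of all, and ATF4 mKO mouse 8 was the lowest. The gap between the groups was narrow, since ATF4 mKO mouse 5 (8.588) and control mouse 5 (8.632) lay close to each other.

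The dimmer probe averaged 8.69 ± 0.07 in control mice and 8.53 ± 0.04 after deletion of Atf4 (SD, n = 8). Their difference on the log2 scale was -0.17 ± 0.03 (S.E.), with a 95% interval of -0.22 to -0.11. With the call used here, an adjusted p of 0.1 or less by limma over all probes, this was 1 of the 5 LRRC8 probes called, beside 0.136% of all probes called, 0.0973% called lower and 0.0389% called higher. Since this call is the reason for the choice of the family, nothing follows from that share. Likewise, 1 of the 5 probes had groups that did not overlap, beside 0.101% of all probes in either direction and 0.0856% with ATF4 mKO mice lower. By the methods' t-test, at an unadjusted p of 0.025, 1 of the 5 passed, beside 2.85% of all probes. Among the 25 probes that were called lower, the dimmer Lrrc8a probe had the 20th largest difference. Its call held in 16 of the 16 fits without 1 array. These share most of their arrays with the fit that chose the probe, so this is no further support. The call was lost without control mice 3 and 7, where the difference was -0.15.

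The brighter probe gave 8.89, 9.03 and 9.13 as the lowest, median and highest control values. In ATF4 mKO mice the values were 8.87, 8.95 and 9.01. The groups overlapped here. All 8 ATF4 mKO mice lay below the control mean, but control mouse 8 (8.89) was lower than 6 of them, and 5 control mice lay above the highest ATF4 mKO mouse, mouse 2. The means were 9.02 ± 0.07 and 8.95 ± 0.05 (SD, n = 8), a difference of -0.07 ± 0.03 (S.E.) with a 95% interval of -0.14 to -0.01, and the probe was not called. Without control mice 3 and 7 the difference was also -0.07.

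**Figure D1:**
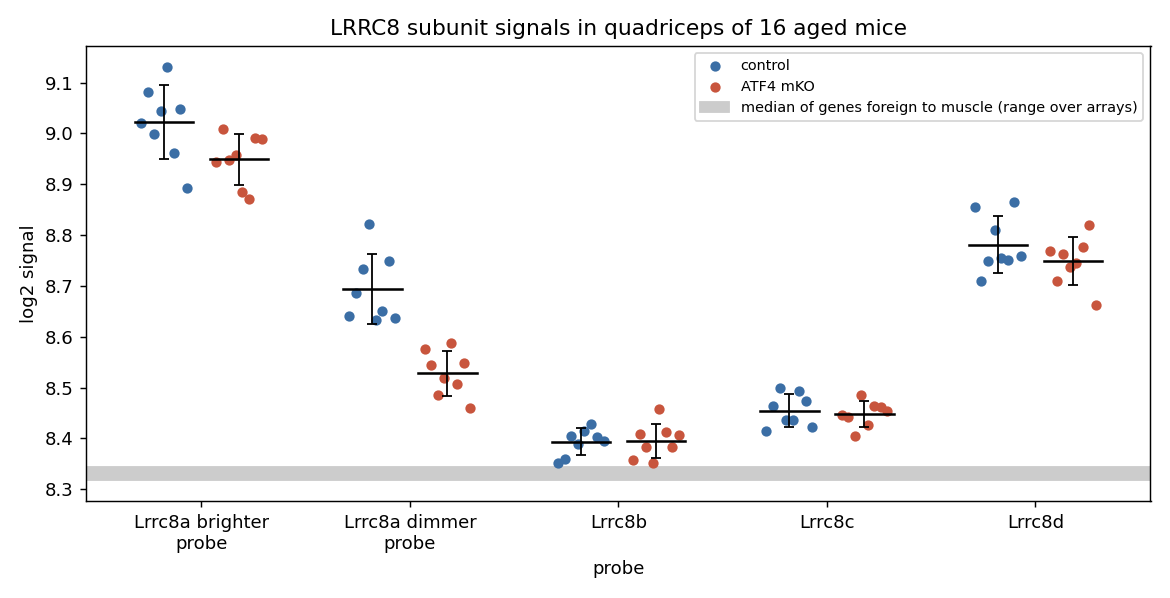
Log2 signal (vertical axis) of each of the 5 LRRC8 probes (horizontal axis) in 8 control and 8 ATF4 mKO mice; points are mice, bars are means ± SD, and the grey band is the range over arrays of the median of genes foreign to muscle (8.32 to 8.34). The genotypes are separate on the dimmer Lrrc8a probe and overlap on the other 4.

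The Lrrc8a probes thus had the same direction but differed in size. Within a mouse, the brighter probe exceeded the dimmer probe by 0.33 ± 0.09 in controls against 0.42 ± 0.07 in ATF4 mKO mice (SD, n = 8). Both probes are annotated to the same transcript, the only one that the RefSeq table lists for Lrrc8a. Where on it they bind is not stated in the sources used, so what part of the mRNA each one reads was not tested. Mice that were high on one probe were not regularly high on the other. Within genotypes, Pearson's r between the probes was 0.18 in control mice (Spearman's rho 0.07, exact permutation p = 0.665 and 0.882) and -0.22 in ATF4 mKO mice (rho -0.14, exact permutation p = 0.591 and 0.752). Without the 2 mice farthest from the median of the brighter probe, r was 0.37 and -0.06.

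Near the floor of the scale, log2 values change little. The signal above the genes foreign to muscle was therefore also computed on the linear scale, an alternative chosen after the data were seen. On that scale the dimmer probe went from 93.5 ± 19.4 units in control to 46.6 ± 10.7 units with the deletion (SD, n = 8), which is 50.2% lower. As deposited, the signal was 10.8% lower. The brighter probe went from 199.7 ± 25.96 to 171.8 ± 17.3 units, which is 13.99% lower. The sizes differed between the probes on this scale as well. The percentages depend on the level taken as zero, to which the dimmer probe lay nearer than the brighter one.

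On the log2 scale, the partner subunits showed smaller differences than either Lrrc8a probe. Lrrc8d encodes the subunit that lets larger and uncharged molecules such as taurine and some drugs pass, and it was the partner with a signal clearly above the floor. Its values in control mice were 8.71, 8.76 and 8.864 as the lowest, median and highest, and in ATF4 mKO mice they were 8.66, 8.75 and 8.82. The groups overlapped over most of their range, and 7 of 8 ATF4 mKO mice lay below the control mean. The means were 8.78 ± 0.06 and 8.75 ± 0.05 (SD, n = 8), and the difference was -0.03 ± 0.02 (S.E.; 95% interval -0.09 to 0.02).

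Lrrc8c, first described in mice as a factor of adipocyte differentiation, ran from 8.41 to 8.499 with a median of 8.45 in control mice. In ATF4 mKO mice it ran from 8.40 to 8.49 with the same median of 8.45. The groups overlapped almost wholly, with a difference of -0.00686 ± 0.0140 (S.E.; 95% interval -0.04 to 0.02). Lrrc8b encodes a subunit about whose role less is known. Its signal ran from 8.35 to 8.43 with a median of 8.40 in control mice and from 8.35 to 8.46 with a median of 8.39 in ATF4 mKO mice, and 4 ATF4 mKO mice lay on either side of the control mean. The difference was 0.00204 ± 0.0148 (S.E.; 95% interval -0.03 to 0.03). Without control mice 3 and 7 the differences were -0.02 for Lrrc8d, 0.00370 for Lrrc8c, which changed sign, and 0.00561 for Lrrc8b.

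Lrrc8b and Lrrc8c lay close to the floor, where a fall can hardly show. Lrrc8b was above the brightest of the genes foreign to muscle on 9 of the 16 arrays and Lrrc8c on 14. The probes of Lrrc8a and Lrrc8d were above it on 15, and the exception was control mouse 8 with its high Apoa2 signal for Lrrc8d and for both probes of Lrrc8a. Their intervals therefore bound the change of the signal and say little about the mRNAs of Lrrc8b and Lrrc8c. For the signal above the genes foreign to muscle, Lrrc8d went from 119 ± 17.6 to 107 ± 13.2 units, Lrrc8c from 29.9 ± 7.43 to 26.4 ± 6.46 and Lrrc8b from 15.1 ± 6.39 to 13.9 ± 8.24 (SD, n = 8), each change smaller than the SD of a group. In percent, Lrrc8c was 11.5% lower, Lrrc8d 9.94% and Lrrc8b 8.16%. Lrrc8b, slightly higher as deposited (8.393 in control and 8.395 in ATF4 mKO mice), was lower on this scale, as were the other 4 probes. The level subtracted was taken from each array, so a difference in it between the genotypes enters these values. The lower value of Lrrc8b thus reflects the level subtracted and not a lower deposited signal. That level weighs most for the dim probes of Lrrc8b and Lrrc8c. The brighter Lrrc8a probe was close to the partners in percent.

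Lrrc8a was then set against its partners within each mouse. The mean of the 3 partners was 8.54 ± 0.02 in controls against 8.53 ± 0.02 in ATF4 mKO mice (SD, n = 8). The dimmer Lrrc8a probe exceeded that mean by 0.15 ± 0.06 in control mice, with a range of 0.09 to 0.28. In ATF4 mKO mice the value was -0.00198 ± 0.0390, with a range of -0.05 to 0.05, so that the groups were separate. Since the partner mean differed by only -0.01, this mostly repeats the separation of the probe that chose the family. It is no second result. For the brighter probe the excess was 0.48 ± 0.08 in controls against 0.42 ± 0.06 in ATF4 mKO mice, and the ranges of 0.37 to 0.60 and 0.32 to 0.49 overlapped. Of the 3 partner probes in that mean, 2 had a mean signal below 8.5, near the floor. Over all 5 probes, 4 were lower and 1 was higher, with a median difference of -0.03, beside 48.5% of all probes lower and a median of 0.000468 over all probes.

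**Figure D2:**
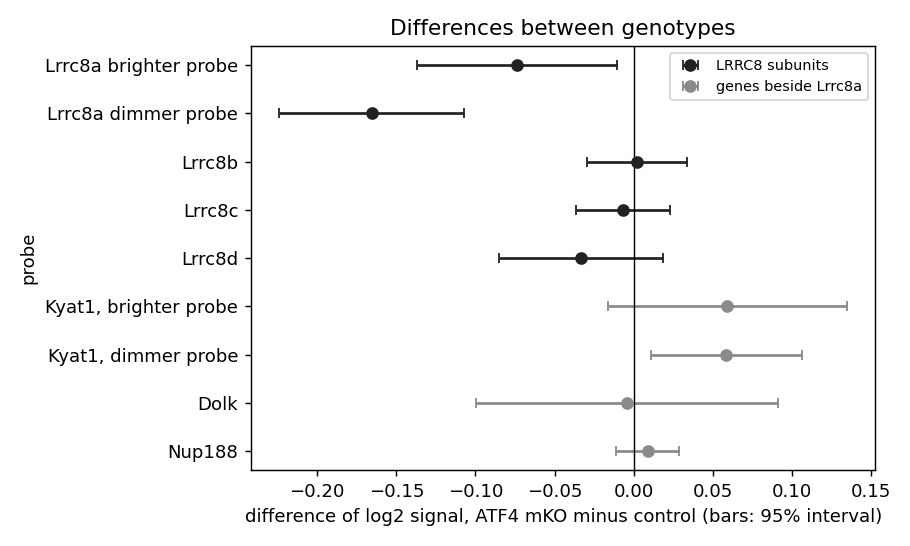
Difference of the log2 signal between ATF4 mKO and control mice (horizontal axis) for each LRRC8 probe and for each probe of the genes beside Lrrc8a (vertical axis); points are limma estimates and bars are 95% intervals. The dimmer Lrrc8a probe (-0.17) is farthest from 0, the partners lie between -0.03 and 0.00204, and the Kyat1 probes lie above 0.

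Genes beside the LRRC8 genes were compared in the same fit, since the choice of the family did not use them. Of the 24 nearest annotated genes, 3 on each side of every member and other LRRC8 genes left out, 5 had probes, and 0 of their 6 probes were called (limma, 1 at an unadjusted p under 0.05, 0 by the methods' t-test after Benjamini-Hochberg adjustment). Since 0.136% of all probes were called, 0 of 6 says little. Kyat1, which encodes an enzyme of cysteine conjugate and kynurenine metabolism, is the third annotated gene before Lrrc8a. It went from 10.09 ± 0.07 to 10.15 ± 0.08 on one probe and from 9.25 ± 0.06 to 9.31 ± 0.02 on the other (SD, n = 8), differences of 0.06 on each that did not pass (limma, adjusted p = 0.899 and 0.830). Gm31201, 1700084E18Rik and Phyhd1, which lie nearer to Lrrc8a, had no probe. Dolk, an enzyme of dolichol phosphate synthesis on the other side, gave -0.00425 (95% interval -0.10 to 0.09), and Nup188, a nuclear pore protein, was at the floor. Prr36 and Snapc2, near Lrrc8e, were at or close to the floor. The neighbours of Lrrc8b, Lrrc8c and Lrrc8d had no probes.

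Whether Lrrc8a followed Atf4 from mouse to mouse was examined within each genotype, which is independent of the difference between genotypes. In control mice Atf4 ran from 10.26 in mouse 4 to 10.57 in mouse 3. The dimmer Lrrc8a probe was highest in mouse 4, where Atf4 was lowest. Its correlation with Atf4 was r = -0.52 (rho = -0.33; two-sided exact permutation p = 0.191 and 0.428, n = 8). Without the 2 mice farthest from the median Atf4 signal, r was -0.43. The brighter probe gave r = -0.15 in control mice (rho = -0.24; exact permutation p = 0.722 and 0.582, n = 8) and -0.13 without the 2 farthest mice. Among control mice, a higher Atf4 signal thus did not go with a higher Lrrc8a signal on either probe, although 8 mice leave wide error. The arrays read Atf4 mRNA and not ATF4 protein, so whether Lrrc8a followed the protein was not tested.

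In ATF4 mKO mice Atf4 itself was near the floor (mean 8.52), and the dimmer Lrrc8a probe was as low (8.53). There the brighter probe gave r = 0.53 (rho = 0.43; exact permutation p = 0.176 and 0.299, n = 8). That value rested on the 2 farthest mice, since r was -0.13 without them. The dimmer probe gave r = 0.14 (rho = 0.17; exact permutation p = 0.746 and 0.703, n = 8) and 0.87 without the 2 farthest mice. Both values thus depended on few mice.

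**Figure D3:**
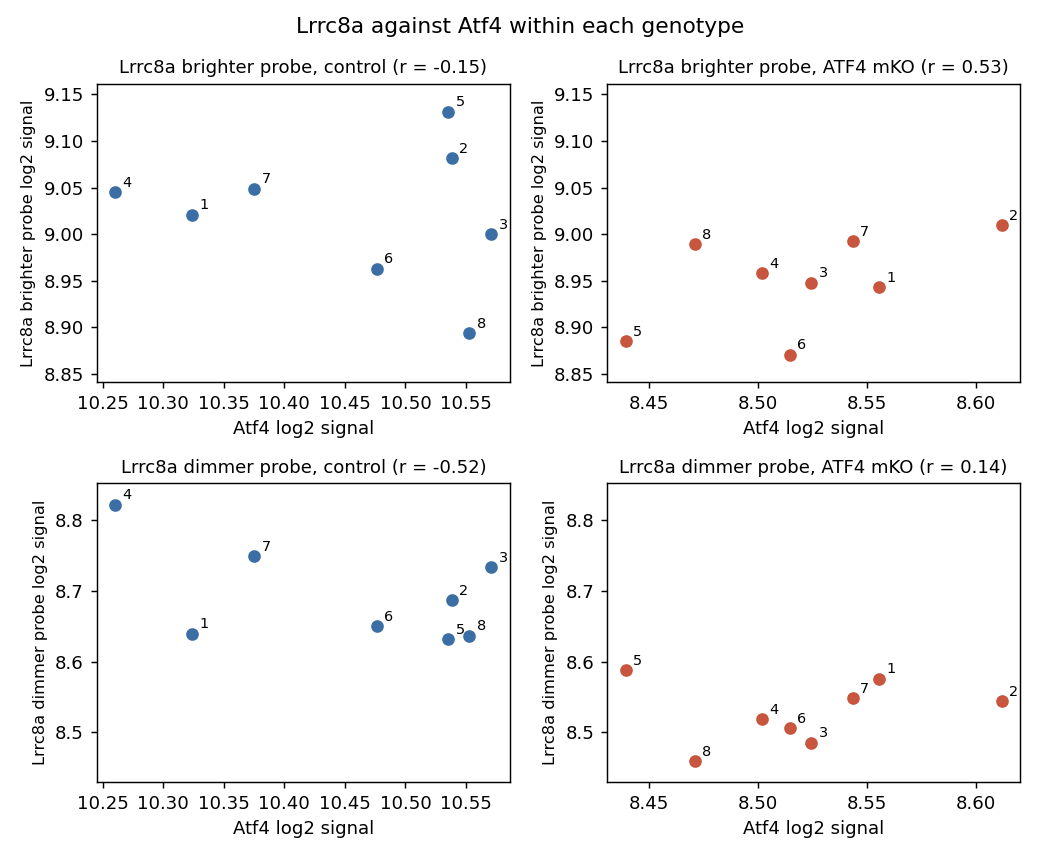
Log2 signal of the brighter (top) and dimmer (bottom) Lrrc8a probe against that of Atf4 in control (left) and ATF4 mKO mice (right); each point is a mouse with its number. In control mice the dimmer probe is highest in mouse 4, which has the lowest Atf4 signal, and r is -0.52.

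These were 4 of 50 relations, in which each Lrrc8a probe was set against Atf4, 8 other genes that fell in ATF4 mKO mice and each partner subunit, and the Lrrc8a probes against each other. After Benjamini-Hochberg adjustment 0 of the 50 passed at 0.05 (exact permutation test; 2 at an unadjusted p under 0.05, 0 by rank correlation after adjustment). The 2 were the brighter probe with Aars, the tRNA synthetase for alanine, in control mice (r = 0.82, rho = 0.83, exact permutation p = 0.0125 and 0.0154, adjusted p = 0.312 and 0.384, n = 8) and the dimmer probe with Sars, the serine enzyme, in ATF4 mKO mice (r = 0.88, rho = 0.83, exact permutation p = 0.00578 and 0.0154, adjusted p = 0.289 and 0.384, n = 8). Without the 2 farthest mice these r were 0.63 and 0.83. The other Lrrc8a probe gave 0.28 for Aars in control mice and -0.08 for Sars in ATF4 mKO mice.

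No relation between Lrrc8a and a partner passed. The brighter probe gave r between -0.16 and 0.04 with Lrrc8b, Lrrc8c and Lrrc8d in control mice and between -0.41 and 0.12 in ATF4 mKO mice. For the dimmer probe r was between -0.00676 and 0.29 in control mice and between -0.07 and 0.44 in ATF4 mKO mice (n = 8 each). The lowest adjusted p among these was 0.983 (exact permutation test). Where a probe lies near the floor, measurement error limits any such correlation.

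After the genotype means were removed, the genes whose pattern over the 16 arrays was most like the brighter Lrrc8a probe were Crk (r = 0.75), Insig2 (0.74), Atxn2 (0.73), Nt5m (0.72) and Robo4 (0.69), the highest of 4902 probes with a mean signal of at least 9. Crk encodes an adaptor of tyrosine kinase signaling, Insig2 a regulator of sterol synthesis, Atxn2 an RNA-binding protein, Nt5m a mitochondrial nucleotidase and Robo4 a receptor of endothelial cells. With the dimmer Lrrc8a probe, which was not used to choose them, the same genes gave r between -0.08 and 0.27. Selection of the highest among so many makes these values high, and no test is given.

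Other genes of volume regulation and chloride transport were compared by lists drawn up by function, with earlier results of these data known. Of 89 genes in 6 lists, 74 were measured, 0 fell and 0 rose (limma, adjusted p of 0.1; 6 at an unadjusted p under 0.05, 0 by the methods' t-test after Benjamini-Hochberg adjustment). With 1 probe per gene, 0.151% of all 16593 genes were called. The 74 had a median difference of -0.000469, and 39 were lower and 35 higher. Many of them were dim, and 27 had a mean signal of at least 8.5.

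Among the cation-chloride cotransporters and the WNK kinases that control them, 16 of 20 were measured, and 0 passed. Their differences lay between -0.01 and 0.04, with a median of 0.00300. The smallest p belonged to Klhl2 (0.02; limma, adjusted p = 0.894), an adaptor for the degradation of WNK kinases, and Slc12a8 (0.01; adjusted p = 0.894), both at the floor. Slc12a2, the NKCC1 cotransporter that loads cells with chloride, was 12.10 in control mice and 12.14 in those without muscle ATF4, and Wnk1, a chloride-sensing kinase, was 11.44 and 11.43. These values are from the brightest probes. The other Slc12a2 probes gave -0.03, 0.00505 and 0.00471, and the other Wnk1 probes gave 0.02 and 0.01, so directions differed between probes. Slc12a2 and Wnk1 were named after their values were seen.

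Of 35 other chloride channels and their subunits, 27 were measured and 0 passed. Clns1a, which encodes a protein once proposed as the volume-regulated channel and now known for its part in splicing factor assembly, had the smallest p of the lists. Its signal was 9.17 ± 0.04 and 9.25 ± 0.05 (SD, n = 8), so it differed by 0.08 ± 0.02 (S.E.), which did not pass by limma (adjusted p = 0.498). That was the brightest of 3 Clns1a probes, and the other 2 gave -0.00988 at 9.05 in control mice and -0.01 at 8.65, so the probes disagreed in direction. Clic6 gave -0.03 (adjusted p = 0.814) at the floor. Clcn1, the main chloride channel of the fiber membrane, was 8.82 and 8.85 and was also named after its values were seen.

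For osmolytes and water, 15 of 16 genes were measured and 0 passed. Nfat5, the transcription factor of the response to hypertonicity, gave -0.04 on its brightest probe (limma, adjusted p = 0.850) and 0.02 and 0.000706 on dimmer ones, and Slc5a3, a myo-inositol transporter, gave 0.01 at the floor (adjusted p = 0.894). Slc6a6, the taurine transporter, was 12.07 and 12.09 in control and ATF4 mKO mice, and the water channel gene Aqp1 was 12.38 and 12.35. The other Aqp1 probes gave 0.00275 and -0.03. Slc6a6 and Aqp1 were named after their values were seen. Of 10 cation channels that open on swelling or stretch, 9 were measured and 0 passed, with Piezo2 at -0.04 (adjusted p = 0.841) and Kcnk2 at -0.02 (adjusted p = 0.896). Of the 3 pannexins, which resemble LRRC8 proteins in structure, 0 passed, and Panx3 gave -0.03 (adjusted p = 0.834) and Panx2 -0.00938 (adjusted p = 0.940). Piezo2, Kcnk2, Panx3 and Panx2 were dim, with mean signals of 8.42, 8.46, 8.36 and 8.33. The other Kcnk2 probe gave 0.00574.

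The last list held proteins known to bind LRRC8A. Of 5 genes, 4 were measured and 0 passed. Cav1, the main protein of caveolae, had signals of 11.54 ± 0.16 and 11.37 ± 0.13 (SD, n = 8). They differed by -0.18 ± 0.07 (S.E.; 95% interval -0.32 to -0.03), which did not pass (adjusted p = 0.820 by limma). Gab2, a signaling adaptor, gave -0.00912 at the floor (adjusted p = 0.961). Cav1 is abundant in endothelial cells. The mean of 5 endothelial markers lay between 9.23 and 9.33 in control and between 9.14 and 9.36 in ATF4 mKO mice, and that of 4 mural cell markers between 9.34 and 9.49 and between 9.26 and 9.46. All 5 endothelial markers and 3 of the 4 mural markers had a lower mean in ATF4 mKO mice, the direction of Lrrc8a and Cav1, and 0 of them were called. The list means were 9.28 and 9.23 for endothelial cells and 9.42 and 9.38 for mural cells. Single markers differed by -0.15 (Egfl7) to -0.00306 (Kdr) for endothelial cells and by -0.16 (Acta2) to 0.05 (Rgs5) for mural cells. Counts of lower markers for the other cell types are given below. Their list means in control and ATF4 mKO mice were 14.91 and 14.92 for fibers and 9.06 and 9.09 for adipocytes. For fibroblasts they were 9.96 and 9.95, and for leukocytes 8.39 and 8.37. The part of these cells in the Lrrc8a and Cav1 values was not tested.

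**Figure D4:**
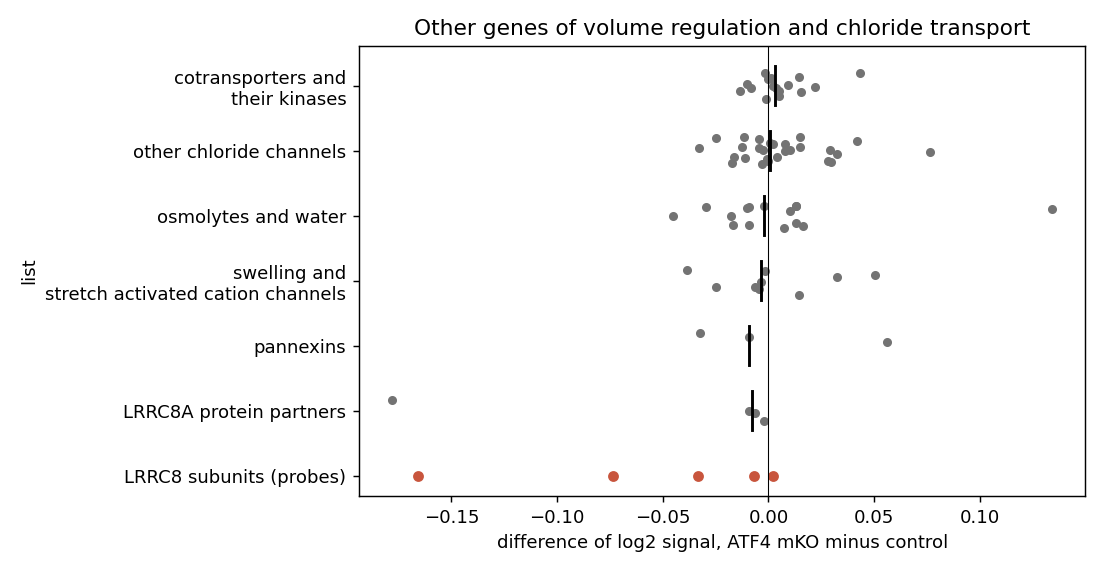
Difference of the log2 signal between ATF4 mKO and control mice (horizontal axis) for the 74 measured genes of 6 lists (grey points, brightest probe of each gene, black lines at the list medians) and for the 5 LRRC8 probes (red). List medians lie near 0, and Cav1 (-0.18) is the listed gene farthest below it.

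Markers of other cell types overlapped between the genotypes, and 0 of them were called. Lower in ATF4 mKO mice by their means were 4 of 6 fiber, 3 of 4 fibroblast, 2 of 3 leukocyte and 1 of 4 adipocyte markers. Of the 10 genes foreign to muscle 6 were lower, while the 2 satellite cell markers and the Schwann cell marker were higher. The mean of 3 leukocyte markers lay between 8.35 and 8.41 in control and between 8.34 and 8.44 in ATF4 mKO mice, and that of 4 adipocyte markers between 8.79 and 9.55 and between 8.90 and 9.37. For 4 fibroblast markers the ranges were 9.76 to 10.08 and 9.85 to 10.06. The satellite cell markers Pax7 and Myf5 (8.32 each) and the Schwann cell marker S100b (8.32) were at the floor. Lrrc8a is known to be expressed in most cell types, and whole-muscle arrays do not show which cells its signal came from.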

How the data were processed

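RNA of each quadriceps was hybridized at a genotyping core to a Ref-8 BeadChip for mouse (Illumina, second version), and BeadStudio gave the signals. The log2 signals per probe were used as the authors deposited them. The background correction and normalization behind them were not given in the sources used here. Slide positions were not used, so slide and genotype cannot be told apart.

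limma 3.58.1 (R 4.3.3; lmFit, eBayes) compared ATF4 mKO with control mice for all 25697 probes, with Benjamini-Hochberg adjusted p, and 0.1 was the limit for a call. Standard errors and intervals come from that fit. Exact tests of correlation went through all 40320 pairings of 8 mice (SciPy 1.17.1 in Python 3.11.15). These steps were tested on simulated data. The labels gave genotype and mouse.

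The family, gene lists and tests were chosen with earlier results of these data known. The text names every LRRC8 probe, Atf4, the genes correlated with Lrrc8a, the 5 genes most like its brighter probe and, for each list without a call, the pair of genes with the lowest p. Other named genes are said to be chosen after their values were seen or belong to the markers, neighbours and promoter matches. A list counts each gene by its brightest probe. Symbols were matched by gene identifier (GRCm38.p6), and promoter windows are those of RefSeq. Some promoter matches are not reported here.

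Alternatives were quantile normalization, median centring, array weights, a block for mouse number, omission of each array or of control mice 3 and 7, omission of dim probes, a robust prior variance that depends on the signal, the methods' t-test with and without adjustment, a limit of 0.05, all probes of a gene, rank correlation and another motif.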

Additional observations from a re-analysis of the deposited data

How the results depend on the processing

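The differences of the 5 LRRC8 probes moved by less than the SD of a group under quantile normalization, centring, array weights and without control mice 3 and 7, although Lrrc8c changed sign without control mice 3 and 7 and Lrrc8b without some single arrays. Omission of 1 of 8 arrays can move a mean only a little. Over the fits without 1 array, the differences ran from -0.17 to -0.15 for the dimmer Lrrc8a probe, -0.09 to -0.06 for the brighter one, -0.00690 to 0.00818 for Lrrc8b, -0.01 to -0.000599 for Lrrc8c and -0.04 to -0.02 for Lrrc8d. On the linear scale above the genes foreign to muscle, added after seeing the data, the log2 ratios were -1.01, -0.22, -0.12, -0.18 and -0.15 in that order. The level subtracted on each array enters these ratios, most of all for Lrrc8b and Lrrc8c. The mouse numbers did not pair the arrays, since arrays of the same number correlated between -0.23 and 0.25 in their deviations and 1 of 8 correlated best with its own number. With mouse number as a replicate block, 16 probes were called in place of 35, and the dimmer Lrrc8a probe, with the same difference of -0.17, was not among them. The methods' t-test at an unadjusted p of 0.025 called 733 probes, 2 of them in the lists of volume regulation (Clns1a and Clic6). Without 1 array, 28 to 37 probes were called, and calls in these lists and among neighbours stayed at 0. The Lrrc8a window held 0 matches to the longer motif TGATGNAAN and 1 to TGACGTCA. Without 1 mouse, r between Atf4 and the brighter probe ran from -0.41 to 0.14 in control and from 0.31 to 0.74 in ATF4 mKO mice, and for the dimmer probe from -0.78 to -0.05 and from -0.14 to 0.73. The brighter probe in ATF4 mKO mice gave -0.13 without the 2 farthest mice. Control mouse 8 decided the sign for the brighter probe (0.14 without it), and ATF4 mKO mouse 8 that for the dimmer probe in ATF4 mKO mice (-0.14 without it). Between the Lrrc8a probes r ran from -0.0898 (without control mouse 8) to 0.54 in control and from -0.46 to 0.0956 (without ATF4 mKO mouse 5) in ATF4 mKO mice. Signals close to the floor limit Lrrc8b and Lrrc8c most.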
